A study of Mus musculus with 12 samples.

Results

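The 10 genes described here make, break down or sense prostaglandins: Pla2g4a, Ptgs1, Ptgs2, Ptges, Ptges2, Ptges3, Hpgd, Ptger2, Ptger4 and Ptgfr. They were chosen by symbol, and all 10 were found among the 26382 genes listed for both cell types of the study. RNA was sequenced from mural granulosa cells (MGCs, the cells that line the follicle wall) and from cumulus cells (the granulosa cells that surround the oocyte). Immature female mice had been primed with equine chorionic gonadotropin (eCG) and then given human chorionic gonadotropin (hCG, which acts on the LH receptor), and both cell types were taken at 2 h post-hCG. The control mice, labelled Control in the titles, were WT C57/BL6 animals. The others, labelled Sphk1/2 knockout, were Sphk1-/-; Sphk2 fl/fl; Fshr-Cre mice (Sphk1/2gc-/-), which lack sphingosine kinase 1 in all tissues and lose the floxed part of Sphk2 only where the Fshr promoter drives Cre, that is in granulosa cells. Each of the 4 groups had 3 libraries, and the labels do not say whether they came from separate animals, so p-values measure the spread between libraries.

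Prostaglandins are lipid signals made from arachidonic acid. A phospholipase A2 (cytosolic PLA2, from Pla2g4a) frees the acid from membranes, the cyclooxygenases COX-1 (Ptgs1) and COX-2 (Ptgs2) turn it into PGH2, and terminal synthases turn PGH2 into single prostaglandins such as PGE2. After the LH surge granulosa and cumulus cells switch on Ptgs2, and PGE2 acting on the EP2 receptor of cumulus cells is needed for expansion of the cumulus and for normal ovulation. The enzyme 15-hydroxyprostaglandin dehydrogenase (Hpgd) starts the inactivation of PGE2 and PGF2α.

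Totals of 16100365 to 19761604 reads per library (median 17257224) were recovered from the deposited FPKM values (a fragment count divided by the exon length of the gene and by the library's total). Sphk1/2gc-/- library 3 of the MGCs stood apart, and its values are set apart below. Its correlations with the other MGC libraries were 0.912 to 0.939 over log2 FPKM. The highest correlation of each other MGC library was 0.969 to 0.986, and that of each cumulus library was 0.970 to 0.986. The lowest correlation within the cumulus libraries was 0.924. WT library 3 of the cumulus cells listed 27541 genes above 0, against 18788 to 19289 in the other cumulus libraries. WT MGCs held 0.460 to 1.88 FPKM of Sphk1 and MGCs labelled Sphk1/2gc-/- 0.104 to 0.557. In cumulus cells it had 6 to 8 reads per library in WT and 7 to 51 in the libraries labelled Sphk1/2gc-/-, so it was not lower there. Sphk2 overlapped between the genotypes in both cell types, and whole-gene values also count exons outside the deletion. The markers went against the cumulus label too: Amh was at 0.102 to 2.16 FPKM in the libraries labelled cumulus and at 87.3 to 226 in MGCs, Slc38a3 at 0.341 to 3.23 against 13.9 to 41.6, and Npr2 at 17.0 to 20.7 against 60.9 to 87.0. The sum of the oocyte markers was 24.4 to 64.2 FPKM in WT MGC libraries and 3.23 to 5.69 in WT libraries labelled cumulus. General granulosa markers had lower WT means in the libraries labelled cumulus too, such as Foxl2 (2.95 against 20.5 FPKM) and Inha (1630 against 8338). Fshr went the other way (105 against 59.8). Cell types and genotypes are therefore named by their labels only.

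Promoters are shown for Ptgs2, the most abundant member in WT MGCs, and for Ptges, Hpgd and Ptgfr, the 3 members that passed the genotype test in cumulus cells. The sequences are the bases upstream of the RefSeq start in GRCm38.p6, 5′ to 3′ on the strand of the gene, without any base that GENCODE puts in an exon of the gene. They lie at chr1:150099781-150100030 (plus strand, Ptgs2), chr2:30903298-30903547 (minus strand, Ptges), chr8:56294302-56294551 (plus strand, Hpgd) and chr3:151837631-151837778 (minus strand, Ptgfr). Capitals mark matches, on either strand, to 1 of 8 motifs that were searched.
Ptgs2: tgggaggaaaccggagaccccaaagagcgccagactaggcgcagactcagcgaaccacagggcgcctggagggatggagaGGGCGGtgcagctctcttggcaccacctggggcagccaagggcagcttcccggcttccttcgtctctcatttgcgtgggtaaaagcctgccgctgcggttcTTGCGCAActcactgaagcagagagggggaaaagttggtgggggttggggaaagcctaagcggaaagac
Ptges: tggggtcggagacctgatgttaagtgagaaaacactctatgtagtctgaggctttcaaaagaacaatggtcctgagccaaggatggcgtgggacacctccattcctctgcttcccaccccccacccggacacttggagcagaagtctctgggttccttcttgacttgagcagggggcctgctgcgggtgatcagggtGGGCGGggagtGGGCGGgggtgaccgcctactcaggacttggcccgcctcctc
Hpgd: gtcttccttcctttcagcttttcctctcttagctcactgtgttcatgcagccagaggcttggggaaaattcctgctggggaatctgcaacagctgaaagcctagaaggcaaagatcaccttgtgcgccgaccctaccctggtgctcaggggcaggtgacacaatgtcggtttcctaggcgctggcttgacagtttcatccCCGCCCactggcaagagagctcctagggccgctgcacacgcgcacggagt
Ptgfr: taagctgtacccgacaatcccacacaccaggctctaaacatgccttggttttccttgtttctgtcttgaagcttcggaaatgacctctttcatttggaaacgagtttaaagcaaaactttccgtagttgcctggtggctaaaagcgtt

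The motifs were the cAMP response element (TGACGTCA) and its short form (CGTCA), C/EBP (TTGCNNAA), AP-1 (TGANTCA), NR5A (AAGGTCA), Sp1 (GGGCGG), the E-box (CACGTG) and the TATA box (TATAAA). The short form of the cAMP element lies inside the long one, and the other motifs were searched without regard to overlap. In Ptgs2 the capitals are an Sp1 match 170 bases before the start and a C/EBP match 69 bases before it, which reads the same on both strands. Of 32851 mouse promoters of the same 250 bases, 9.56% held a C/EBP match and 32.7% an Sp1 match. Ptges held Sp1 matches 53 and 42 bases before its start, and Hpgd held 1 on the opposite strand at 50 bases. The 148 bases of Ptgfr held no match, in a window shorter than that of the other genes. Over all promoters the shares of the other motifs were 1.55% (cAMP element), 17.8% (its short form), 6.75% (AP-1), 4.08% (NR5A), 6.02% (E-box) and 12.4% (TATA box). These matches are letters in a window and were not tested for binding. Bases past the RefSeq start were not searched, so motifs there would not be marked.

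Levels in the WT libraries of the 2 cell types are described here without a test. The libraries labelled MGC had the higher Ptgs2, Ptger4 and Ptgfr, and those labelled cumulus had the higher Hpgd, Ptges, Pla2g4a and Ptger2. Of the 10 members, 5 were higher in every WT MGC library than in every WT cumulus library and 4 were higher in every cumulus library. Of 15339 genes compared, 56.3% and 27% did so, and 83.3% did not overlap in either direction, so 9 of 10 is near the background. Cell types come in separate tables and a shared normalization is not stated, so no test was run on levels across them. The median gene was 0.58 log2 units lower in the cumulus libraries. When each library was centred on its median gene, Ptgs1 (11.6-fold higher in MGCs by mean FPKM) moved to the cumulus side and Ptges3 moved from overlap to the cumulus side, and the other 8 members kept their side. Centring was done on log2(FPKM + 1), which shrinks gaps between low values. On that scale Ptgs1 went from −0.62 to 0.17 (cumulus minus MGC), so its move does not undo the gap in FPKM. Hpgd had the widest gap towards cumulus cells among the members, at 402.5 ± 78.1 FPKM (mean ± SD, n = 3) against 37.3 ± 13.9 in MGCs, a ratio of 10.8.

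**Figure D1:**
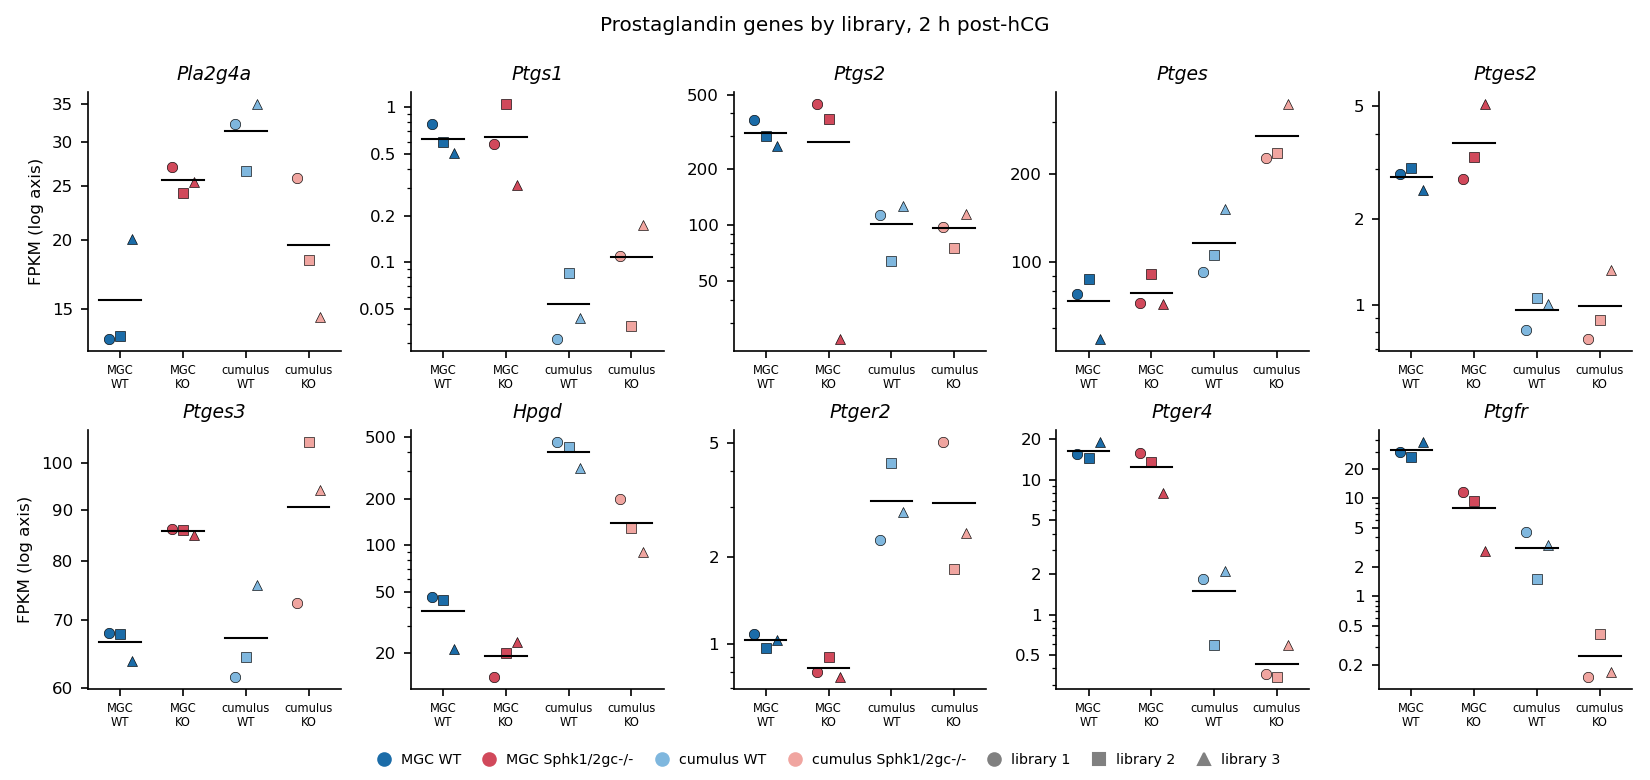
FPKM (log axis, own range in each panel) of the 10 prostaglandin genes in the 12 libraries (KO, Sphk1/2gc-/-). Points are libraries, with the symbol giving the library number, and bars are group means. Ptgs2 drops to 24.6 FPKM in 1 MGC library, Ptges is highest and Hpgd intermediate in cumulus cells labelled Sphk1/2gc-/-, and Ptgfr is lower in the Sphk1/2gc-/- libraries of both cell types.

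In cumulus cells, Sphk1/2gc-/- libraries held more Ptges and less Hpgd and Ptgfr than WT libraries, while Ptgs2 was near its WT level. Of the 9 members that were tested (Ptgs1 was below the filter, a mean of 0.5 FPKM in a genotype), 1 was called higher and 2 were called lower at an adjusted p of 0.05 or less and a fold of at least 2. Among 12205 genes tested, 4.19% were called higher and 3.85% lower, and 22.3% passed the adjusted p alone (9.66% higher and 12.7% lower). The median log2 fold change was −0.06 for the members and −0.06 for all genes tested. No overlap of the genotypes was seen for 4 of the 9 members (Ptges, Pla2g4a, Hpgd and Ptgfr), beside 42.3% of all genes. All tests are limma on log2(FPKM + 1) with Benjamini-Hochberg adjustment over all genes of the contrast, a scale that understates changes of genes at low levels. As these are bulk samples, fewer cells of a type and less RNA per cell cannot be told apart.

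In MGCs none of the 10 members passed limma's test, and 6 of 15279 genes did (0.0393%). At an unadjusted p of 0.05 or less, 505 genes were higher and 901 lower. Among the members Ptges3, Pla2g4a, Hpgd and Ptgfr had an unadjusted p of 0.0112, 0.00596, 0.0344 and 0.00226. The members had a median log2 fold change of −0.08, against −0.0034 for all genes. For 4 of the 10 members (Ptges3, Pla2g4a, Ptger2 and Ptgfr) the genotypes did not overlap, beside 16.9% of all genes. Without Sphk1/2gc-/- library 3, 1 member (Ptgfr) passed as lower, beside 0.73% of genes, and none as higher, beside 1.1%. Without library 3 of either genotype, 2 members passed as higher (Ptges3 and Pla2g4a, beside 5.07% of genes) and 2 as lower (Hpgd and Ptgfr, beside 11% of genes). That fit, also used below, held only libraries 1 and 2 of each genotype. The WT library 3 it dropped correlated at 0.939 to 0.969 with the other MGC libraries.

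**Figure D2:**
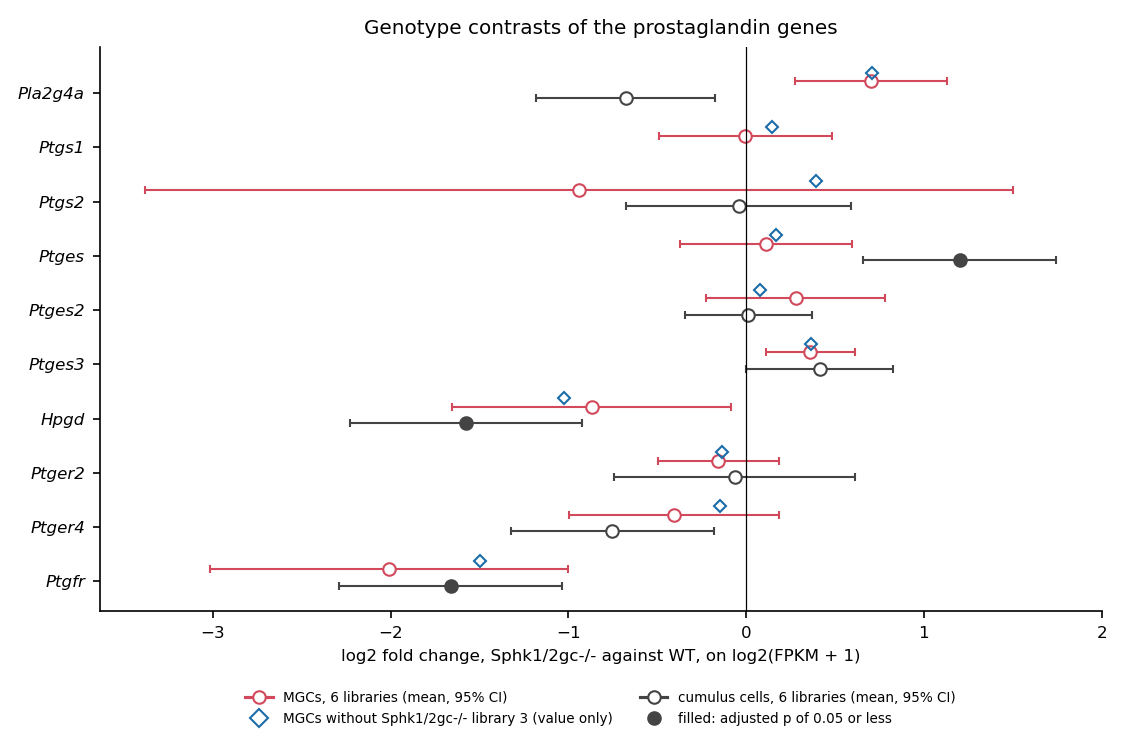
Log2 fold change (Sphk1/2gc-/- against WT, on log2(FPKM + 1)) of the prostaglandin genes, with 95% confidence intervals from limma over 6 libraries of each cell type. Filled points passed an adjusted p of 0.05, and diamonds give the MGC value without Sphk1/2gc-/- library 3. Ptges lies right of 0 and Hpgd and Ptgfr left of it in cumulus cells, and the interval of Ptgs2 in MGCs runs from −3.38 to 1.504.

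Pla2g4a (chromosome 1, 149829618 to 149961290, minus strand, 20 exon blocks) encodes the cytosolic phospholipase A2 that frees arachidonic acid. Its WT MGC libraries 1 to 3 had 13.3, 13.4 and 20.1 FPKM, and the Sphk1/2gc-/- libraries had 27.0, 24.3 and 25.4. In cumulus cells the WT libraries had 32.3, 26.6 and 35.0 FPKM, and those labelled Sphk1/2gc-/- had 25.8, 18.4 and 14.5. The order of the genotypes was thus opposite in the 2 cell types, without overlap in either. Over all 6 libraries the log2 fold change was 0.70 in MGCs (SE 0.179, limma adjusted p = 0.299) and −0.68 in cumulus cells (SE 0.220, limma adjusted p = 0.0592), and neither passed. In MGCs it passed without library 3 of either genotype (0.89, limma adjusted p = 0.00750). In cumulus cells it passed under 3 of 13 alternatives (lowest limma adjusted p = 0.00975). The difference between the effects in the 2 cell types, tested as the interaction of genotype and cell type over all 12 libraries, was −1.38 (SE 0.298, limma adjusted p = 0.0307). Pla2g4a was the only 1 of the 10 members called in this test, beside 3.31% of 15869 genes in either direction and 1.25% in the same direction. The interaction held its size (−1.59 to −1.20) but no longer passed when WT library 1 or 2 of the MGCs, any WT library of the cumulus cells, or Sphk1/2gc-/- library 2 or 3 of the cumulus cells was left out (limma adjusted p = 0.0516 to 0.0942), or with no filter on low values (limma adjusted p = 0.0527).

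Ptgs2 (chromosome 1, 150100031 to 150108227, plus strand, 11 exon blocks), the inducible cyclooxygenase COX-2, was the most abundant member in WT MGCs, with 365, 303 and 268 FPKM in libraries 1 to 3. The Sphk1/2gc-/- libraries had 447, 370 and 24.6 FPKM, so that libraries 1 and 2 lay above each WT library and library 3 far below. Over all 6 libraries the log2 fold change was −0.94 (SE 1.03, limma adjusted p = 0.828). Its direction turned without Sphk1/2gc-/- library 3 (0.39, limma adjusted p = 0.265) and without library 3 of either genotype (0.29, limma adjusted p = 0.206). In cumulus cells the WT libraries had 114, 64.1 and 127 FPKM and the Sphk1/2gc-/- libraries 98.3, 75.6 and 115, which overlap. The log2 fold change there was −0.04 (95% CI −0.67 to 0.59, limma adjusted p = 0.930), so changes within that interval remain possible. Ptgs1 (chromosome 2, 36230426 to 36252272, plus strand, 11 exon blocks), the constitutive COX-1, was the least abundant member in each group. It had 0.781, 0.598 and 0.504 FPKM in WT MGCs and 0.577, 1.049 and 0.313 in Sphk1/2gc-/- MGCs (log2 fold change −0.0041, SE 0.206, limma adjusted p = 0.997). In cumulus cells it had 2, 6 and 3 reads in the WT libraries and 8, 3 and 13 in the Sphk1/2gc-/- libraries, near the floor of 3 reads. The FPKM of Ptgs2 was 352.5 to 774 times that of Ptgs1 in 5 MGC libraries and 78.4 times in Sphk1/2gc-/- library 3.

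Ptges (chromosome 2, 30889471 to 30929863, minus strand, 6 exon blocks) encodes the microsomal PGE2 synthase that is induced together with COX-2. In cumulus cells it had 92.5, 106 and 152 FPKM in the WT libraries and 226, 234 and 344 in those labelled Sphk1/2gc-/-. Each Sphk1/2gc-/- library lay above each WT library, and Ptges rose 2.30-fold (log2 fold change 1.20, SE 0.237, limma adjusted p = 0.0107). It passed under all 13 alternatives run for this contrast (log2 fold change 1.01 to 1.41, highest limma adjusted p = 0.0495). In MGCs it had 78.1, 88.2 and 54.9 FPKM in WT and 72.5, 91.5 and 72.0 in Sphk1/2gc-/- libraries, which overlap (log2 fold change 0.11, SE 0.204, limma adjusted p = 0.916). The interaction was 1.091 (SE 0.336) and did not pass (limma adjusted p = 0.0874), so a difference between the cell types was not shown by this fit. With the replicate number as a block it passed (limma adjusted p = 0.0251), but the numbers did not pair the cumulus libraries, which this block also covers. It passed as well without WT library 3 of the MGCs (1.29, limma adjusted p = 0.0422) and without library 3 of both MGC genotypes (1.23, limma adjusted p = 0.0447).

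Ptges3 (chromosome 10, 128058954 to 128077272, plus strand, 8 exon blocks) encodes p23, an HSP90 co-chaperone that also has cytosolic PGE2 synthase activity. It had 67.9, 67.8 and 63.8 FPKM in WT MGCs and 86.1, 86.0 and 84.9 in Sphk1/2gc-/- MGCs. The genotypes were apart by little but without overlap (log2 fold change 0.36, SE 0.105, limma adjusted p = 0.359). Without library 3 of either genotype it passed (0.34, limma adjusted p = 0.0213). Cumulus libraries had 61.4, 64.3 and 75.8 FPKM in WT and 72.8, 105 and 94.0 in Sphk1/2gc-/-, with library 1 of the latter inside the WT range (log2 fold change 0.42, SE 0.180, limma adjusted p = 0.129). It passed without that library (0.56, limma adjusted p = 0.0248). Ptges2 (chromosome 2, 32395896 to 32405772, plus strand, 7 exon blocks), named for a membrane-associated PGE2 synthase, was at 2.53 to 3.03 FPKM in WT MGCs, at 2.76 to 5.09 in Sphk1/2gc-/- MGCs, at 0.810 to 1.06 in WT cumulus cells and at 0.756 to 1.32 in Sphk1/2gc-/- cumulus cells. Its log2 fold changes were 0.28 (SE 0.212, limma adjusted p = 0.741) in MGCs and 0.01 (SE 0.155, limma adjusted p = 0.963) in cumulus cells. Of the summed FPKM of the 3 PGE2 synthase genes, Ptges made up 59.8% to 66.4% in WT cumulus libraries and 68.9% to 78.3% in the Sphk1/2gc-/- ones, and 44.4% to 55.5% in all MGC libraries.

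Hpgd (chromosome 8, 56294585 to 56321043, plus strand, 7 exon blocks) was the most abundant member in WT cumulus cells, at 463, 430 and 315 FPKM in libraries 1 to 3. The libraries labelled Sphk1/2gc-/- had 198, 129 and 90.8 FPKM. All lay below the lowest WT library, and Hpgd fell by 1.58 on the log2 scale (SE 0.284, limma adjusted p = 0.00765). It passed under each of 13 alternatives (−1.86 to −1.31, highest limma adjusted p = 0.0415). MGC libraries 1 to 3 held 46.4, 44.3 and 21.3 FPKM of it in WT, and 14.0, 20.2 and 23.7 in Sphk1/2gc-/-. WT library 3 lay among the Sphk1/2gc-/- libraries, and the log2 fold change of −0.87 (SE 0.330) did not pass (limma adjusted p = 0.4998). Without library 3 of either genotype it was −1.38 (limma adjusted p = 0.0151). That fit used libraries 1 and 2 of each genotype only, and it dropped the WT library that lay among the Sphk1/2gc-/- ones. The interaction of −0.71 (SE 0.474, limma adjusted p = 0.417) did not show a difference between the cell types.

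Ptges and Hpgd stand at opposite ends of the life of PGE2, and their FPKM ratio ordered the cumulus libraries by label. The ratio of Ptges to Hpgd was 0.1995, 0.246 and 0.482 in WT cumulus libraries 1 to 3 and 1.14, 1.81 and 3.79 in the Sphk1/2gc-/- libraries. Hpgd exceeded Ptges in each WT cumulus library, and Ptges exceeded Hpgd in each Sphk1/2gc-/- one. In MGCs the ratio was above 1 in all libraries, at 1.68, 1.99 and 2.58 in WT and 5.17, 4.54 and 3.04 in Sphk1/2gc-/-. These ratios describe transcripts and not enzyme activity, and no test was run on them, as both genes enter from the tests above.

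**Figure D3:**
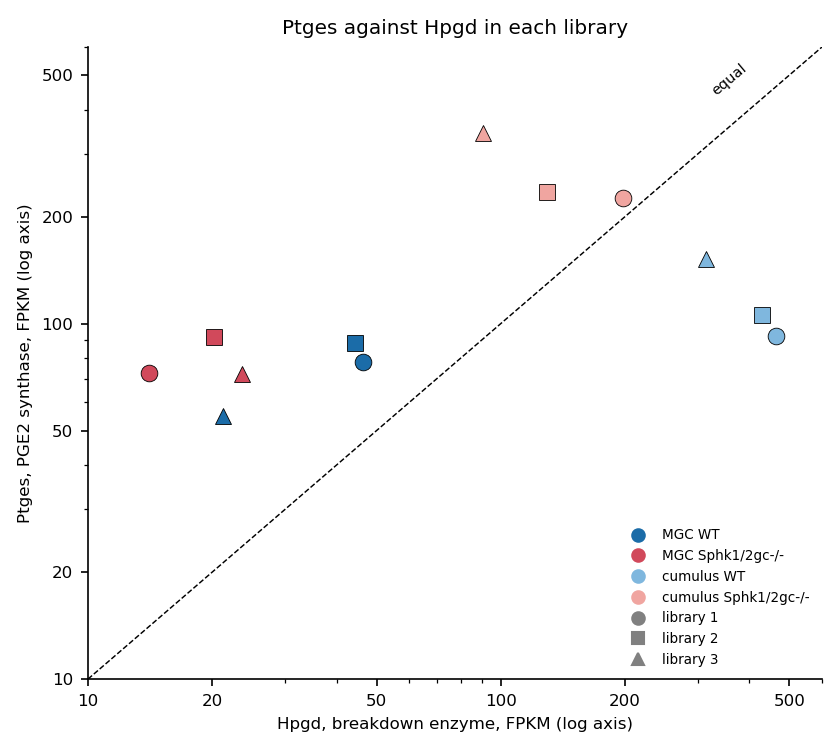
FPKM of Ptges (vertical, log axis) against that of Hpgd (horizontal, log axis) in the 12 libraries, with colour for the group, symbol for the library number and a dashed line where both are equal. The 3 WT cumulus libraries lie below the line and the 3 Sphk1/2gc-/- cumulus libraries and all MGC libraries above it.

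Ptgfr (chromosome 3, 151796502 to 151837630, minus strand, 4 exon blocks) encodes FP, the receptor of PGF2α, which is known for its part in the regression of the corpus luteum. WT MGCs held 29.6, 26.9 and 37.7 FPKM of it, and Sphk1/2gc-/- MGCs 11.5, 9.34 and 2.91. The genotypes did not overlap, yet over 6 libraries the log2 fold change of −2.01 (SE 0.425) did not pass (limma adjusted p = 0.224). Without Sphk1/2gc-/- library 3, the lowest of them, it was −1.49 (SE 0.170, limma adjusted p = 0.0215), and without library 3 of either genotype −1.36 (SE 0.116, limma adjusted p = 0.00750). In cumulus cells the WT libraries had 4.50, 1.502 and 3.37 FPKM (491, 183 and 401 reads), and those labelled Sphk1/2gc-/- had 0.149, 0.411 and 0.169 FPKM (19, 55 and 22 reads). The ranges were far apart, and Ptgfr fell by 1.66 on the log2 scale (SE 0.274, limma adjusted p = 0.00561). The size depends on the pseudocount, since the ratio of mean FPKM was 12.9, the log2 fold change was −3.18 with 0.1 FPKM in place of 1, and it was −3.67 with limma-voom on recovered reads (limma adjusted p = 0.000794). The interaction was 0.35 (SE 0.550, limma adjusted p = 0.766) and changed sign to −1.01 with the smaller pseudocount.

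Ptger4 (chromosome 15, 5206661 to 5244187, minus strand, 5 exon blocks) and Ptger2 (chromosome 14, 44988195 to 45003820, plus strand, 2 exon blocks) encode EP4 and EP2, the PGE2 receptors that raise cAMP. Ptger4 levels in MGC libraries 1 to 3 were 15.5, 14.5 and 19.1 FPKM for WT and 15.8, 13.5 and 8.02 for Sphk1/2gc-/- (log2 fold change −0.41, SE 0.249, limma adjusted p = 0.676). In cumulus cells it was at 1.82, 0.594 and 2.10 FPKM in WT and at 0.359, 0.343 and 0.596 in Sphk1/2gc-/-, where WT library 2 lay just below Sphk1/2gc-/- library 3. The log2 fold change of −0.75 (SE 0.249) did not pass (limma adjusted p = 0.0623), but it passed without WT library 2 (−1.05, limma adjusted p = 0.0139) and with limma-voom on recovered reads (−1.64, limma adjusted p = 0.0276). Ptger2 was the only receptor member with a higher level in cumulus libraries than in MGC libraries. In cumulus libraries it was at 2.29, 4.24 and 2.87 FPKM in WT and 5.03, 1.83 and 2.43 in Sphk1/2gc-/-. These overlap, with a log2 fold change of −0.06 (95% CI −0.74 to 0.61, limma adjusted p = 0.896). MGC levels of Ptger2 were 1.086, 0.971 and 1.03 FPKM in WT and 0.801, 0.898 and 0.766 in Sphk1/2gc-/-, without overlap and not past the test (log2 fold change −0.16, SE 0.143, limma adjusted p = 0.782). Exons of Ptgs1, Ptger2, Ptger4 and Ptgfr overlap those of genes on the opposite strand, and the library kit does not mark strand, so reads of the overlaps could belong to either gene.

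Within the summed FPKM of Ptger2, Ptger4 and Ptgfr, Ptgfr made up 63.5% to 65.2% in WT MGCs and 24.9% to 41.0% in Sphk1/2gc-/- MGCs. In cumulus cells it made up 23.7% to 52.2% in WT and 2.69% to 15.9% in Sphk1/2gc-/- libraries. Ptger2 made up 26.6% to 66.9% in WT cumulus libraries and 70.8% to 90.8% in the Sphk1/2gc-/- ones, although its own FPKM overlapped. The combined FPKM of the PGE2 receptors Ptger2 and Ptger4 was 4.11 to 4.97 in WT cumulus cells and 2.17 to 5.39 in the Sphk1/2gc-/- libraries.

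**Figure D4:**
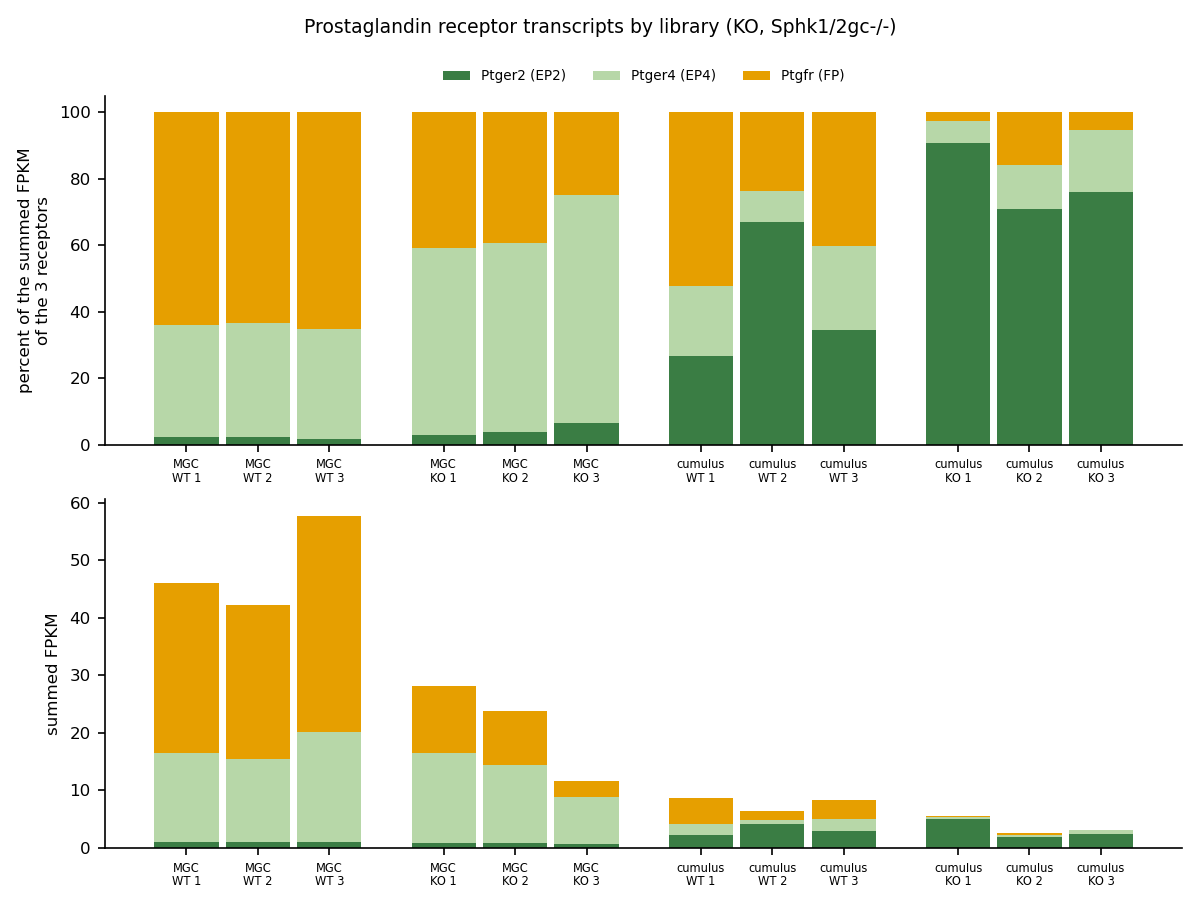
Receptor transcripts in the 12 libraries (KO, Sphk1/2gc-/-). The upper bars give each receptor as percent of the summed FPKM of Ptger2, Ptger4 and Ptgfr, and the lower bars give the FPKM themselves, stacked. The share of Ptgfr is smaller in the Sphk1/2gc-/- libraries of each cell type, and Ptger2 makes up most of the cumulus bars labelled Sphk1/2gc-/-.

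Markers of several cell types moved with the genotype labels of the cumulus libraries. The list sums that did not overlap were all lower in the Sphk1/2gc-/- libraries. Summed FPKM did not overlap for the theca markers (2 of 3 listed, without Insl3), at 10.1 to 27.3 in WT and 5.27 to 8.98 in Sphk1/2gc-/-. The same held for 5 endothelium markers (0.276 to 0.919 and 0.176 to 0.262), 4 neutrophil markers (2.89 to 19.5 and 0.1503 to 0.535) and 5 oocyte markers (3.23 to 5.69 and 1.93 to 2.25). The neutrophil sum was mostly S100a8 and S100a9. Ly6g was at 0 in each Sphk1/2gc-/- library but also in WT libraries 2 and 3, and Cxcr2 averaged 0.0122 FPKM in WT and 0.0166 in Sphk1/2gc-/-. Of the oocyte markers, Gdf9 (0.329 to 1.26 and 0.539 to 0.784) and Nlrp5 (0.0641 to 0.211 and 0 to 0.120) overlapped. The sums of 5 stroma markers (2.45 to 14.7 and 1.69 to 3.68), 5 macrophage markers (1.97 to 36.1 and 6.42 to 52.5, with medians of 8.78 and 39.1) and 3 leukocyte markers (0.563 to 0.774 and 0.771 to 1.99) overlapped. Members of a list did not all move one way: Dcn and Lum made up most of the stroma sum in WT, while Pdgfra was at 0.0929 to 0.172 FPKM in WT and at 0.187 to 0.222 in Sphk1/2gc-/-, and the endothelial Kdr averaged 0.0367 FPKM in WT and 0.0651 in Sphk1/2gc-/-. The theca sum was mostly Cyp17a1 (9.45 to 26.2 FPKM in WT and 4.44 to 8.34 in Sphk1/2gc-/-), while Ptch1 overlapped (means of 0.751 and 0.696). The sum of 6 granulosa markers overlapped (1404 to 2359 in WT and 1883 to 2037 in Sphk1/2gc-/-), as did that of the 3 cumulus markers (17.5 to 21.8 and 20.3 to 24.2). The granulosa sum was mostly Inha, which overlapped (1213 to 2114 and 1772 to 1966 FPKM). The other granulosa markers were lower in each Sphk1/2gc-/- library than in each WT one. Fshr was at 94.0 to 118 FPKM in WT and 50.0 to 83.0 in Sphk1/2gc-/-, and Foxl2 at 2.47 to 3.23 and 1.62 to 1.91. Cyp19a1, the aromatase that makes estradiol, fell from a mean of 62.1 to 11.3 FPKM (limma adjusted p = 0.00236). The nuclear receptor Nr5a2 fell from 28.3 to 9.44 (limma adjusted p = 0.00217) and Cyp11a1, which starts steroid synthesis, from 11.9 to 1.71 (limma adjusted p = 0.00869). WT library 2 of the cumulus cells was the lowest WT library for Ptgfr, for Ptger4, for Dcn (1.10 FPKM) and for the theca marker Cyp17a1 (9.45 FPKM). The same library was also the lowest WT library for Ptgs2, Pla2g4a, Ptx3, Tnfaip6 and Has2, so this rank was not particular to stroma and theca genes. It was the highest WT library for Ptgs1, Ptges2 and Ptger2. In MGCs the neutrophil sum was 129.6 to 195 FPKM in WT and 6.89 to 31.4 in Sphk1/2gc-/-, and the endothelium sum 10.7 to 14.3 and 7.63 to 9.03, while the sums of the other 7 marker lists overlapped. The part of these cells in the values of Ptgfr, Ptger4, Hpgd and Ptges was not tested.

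Around these genes lie others of the pathway, given here as lists written from general knowledge. No gene of any list passed in MGCs over 6 libraries. Without library 3 of both MGC genotypes 4 of 40 list genes tested passed as higher (5.07% of all genes) and 5 as lower (11%). Besides the 3 expansion genes these were Acsl3, an acyl-CoA synthetase (log2 fold change 0.69, limma adjusted p = 0.0143), on the higher side, and the carbonyl reductase Cbr1, Zadh2, the adenylyl cyclases Adcy6 and Adcy9 and the stimulatory G protein gene Gnas (−0.96 to −0.52, limma adjusted p = 0.0175 to 0.0293) on the lower side. The counts in cumulus cells that follow are by adjusted p alone, which 9.66% of all genes passed as higher and 12.7% as lower. In cumulus cells the list for release and re-esterification of arachidonate had 7 of 20 genes tested, of which 2 rose and 1 fell (median log2 fold change −0.16, against −0.06 for all genes). Acsl4, an acyl-CoA synthetase that prefers arachidonic acid, rose from 37.4 ± 7.17 to 75.5 ± 16.4 FPKM (mean ± SD, n = 3; log2 fold change 0.99, SE 0.212, limma adjusted p = 0.0142). Pla2g4c, another cytosolic phospholipase A2, rose from 0.656 to 1.77 FPKM (0.73, limma adjusted p = 0.00959), and Pla2g12a, a secreted one, fell from 13.8 to 7.98 FPKM (−0.72, limma adjusted p = 0.00872). Of 5 other terminal synthases and reductases tested, 1 fell and none rose (median 0.02). It was Cbr1, a carbonyl reductase that can turn PGE2 into PGF2α, at 23.1 and 16.0 FPKM (−0.51, limma adjusted p = 0.0323). Of 6 other genes of breakdown and transport, 2 fell and none rose (median −0.10): Ptgr2 (1.20 to 0.588 FPKM, −0.47, limma adjusted p = 0.0370) and Zadh2 (10.8 to 6.55 FPKM, −0.62, limma adjusted p = 0.0357), both reductases of 15-keto-prostaglandins, the product of Hpgd. In the lipoxygenase branch 1 of 6 genes was tested in cumulus cells and it did not pass (−0.26).

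The other prostanoid receptors were low. In cumulus cells Ptger1, Ptger3, Ptgdr, Ptgdr2 and Ptgir had 1 to 10 reads in all 6 libraries together and Tbxa2r had 15. Ptgfrn, which encodes a protein that binds FP, was at 0.783 ± 0.106 FPKM in WT and 1.28 ± 0.181 in Sphk1/2gc-/- cumulus cells and was the only 1 of the 7 tested there (0.35, limma adjusted p = 0.0983). In MGCs 3 of the 7 were tested: Ptgfrn (5.87 and 5.70 FPKM), Ptger3 (0.615 and 0.246) and Ptgdr2 (0.688 and 0.0669), with log2 fold changes of −0.05, −0.35 and −0.58 (limma adjusted p = 0.956, 0.680 and 0.609). Of the list for cAMP signalling below EP2 and EP4, 6 of 11 genes were tested in cumulus cells, 1 fell and none rose (median 0.13). This was Prkar2b, a regulatory subunit of protein kinase A, at 207, 165 and 202 FPKM in WT and 72.7, 66.3 and 61.1 in Sphk1/2gc-/- (−1.50, SE 0.156, limma adjusted p = 0.00107). In MGCs it was at 458 to 869 FPKM and overlapped between genotypes.

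The 3 expansion genes build the hyaluronan matrix of the expanding cumulus and are known targets of PGE2 acting on EP2: Has2 makes hyaluronan, and Ptx3 and Tnfaip6 encode proteins that link it. In cumulus cells 2 of the 3 rose and none fell, while Ptgs2 and Ptger2 did not pass. Tnfaip6 was at 159, 122 and 282 FPKM in WT and 425, 576 and 606 in Sphk1/2gc-/- (1.58, SE 0.300, limma adjusted p = 0.00937). Ptx3 was at 124, 91.3 and 218 FPKM in WT and 526, 337 and 522 in Sphk1/2gc-/- (1.73, SE 0.321, limma adjusted p = 0.00838). Both lay above the WT range in each Sphk1/2gc-/- library. Has2 had 59.8, 31.9 and 74.6 FPKM in WT and 62.0, 88.3 and 89.6 in Sphk1/2gc-/-, which overlap (0.58, SE 0.307, limma adjusted p = 0.199). In MGCs the same library that was low in Ptgs2 was low in all 3: Sphk1/2gc-/- library 3 had 144 FPKM of Tnfaip6 (747 to 1605 in the others), 9.08 of Ptx3 (44.2 to 114) and 10.1 of Has2 (12.7 to 25.8). Sphk1/2gc-/- libraries 1 and 2 lay above each WT library for all 3, and without library 3 of the Sphk1/2gc-/- MGCs the log2 fold changes were 0.80, 1.10 and 0.72 (Tnfaip6, Ptx3 and Has2; limma adjusted p = 0.0750, 0.0185 and 0.0929). Without library 3 of both genotypes all 3 passed (0.71, 1.02 and 0.85; limma adjusted p = 0.0195, 0.00563 and 0.0106).

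**Figure D5:**
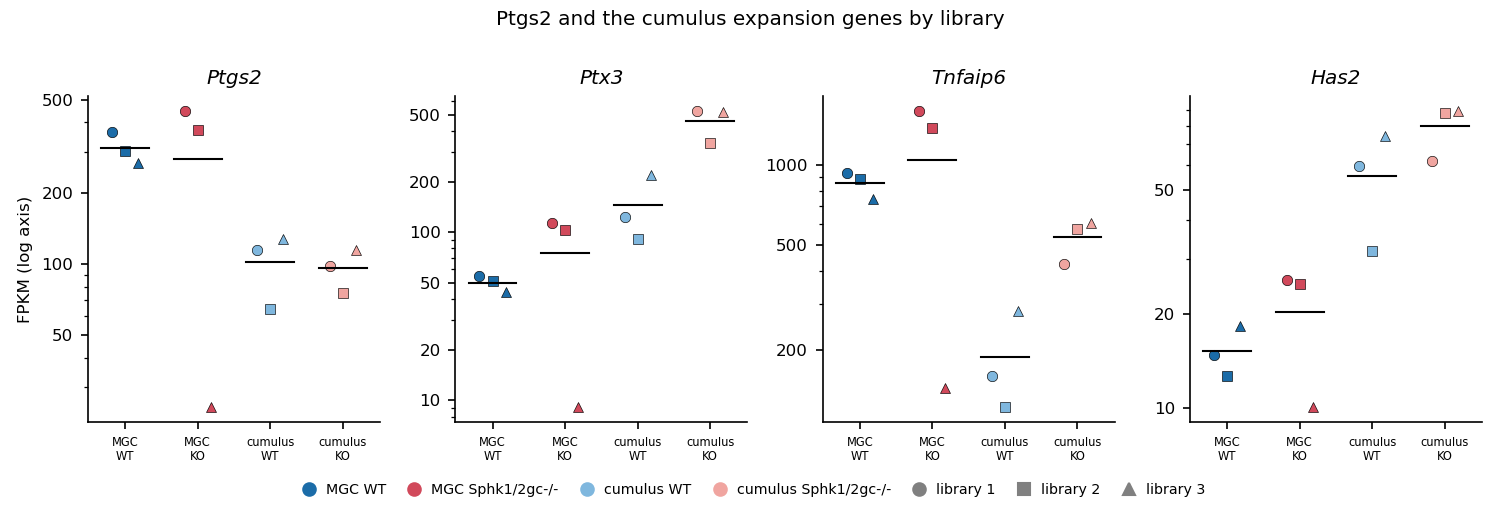
FPKM (log axis, own range in each panel) of Ptgs2, Ptx3, Tnfaip6 and Has2 in the 12 libraries (KO, Sphk1/2gc-/-), with group means as bars. Sphk1/2gc-/- library 3 of the MGCs (triangle) is the lowest MGC library in each panel, and Ptx3 and Tnfaip6 are higher in each Sphk1/2gc-/- cumulus library than in WT.

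The genes whose pattern over the 12 libraries was nearest to that of Ptgs2 were Nts, Mpp7, Dusp10, Hey1 and Rnf128. They were the 5 with the smallest root mean square difference from Ptgs2 in log2(FPKM + 1) after each gene was centred on its mean, at 0.44, 0.48, 0.55, 0.58 and 0.60 log2 units, among 6719 genes that averaged at least 5 FPKM. All 5 were lowest among MGC libraries in Sphk1/2gc-/- library 3. Nts, the precursor of neurotensin, had 252, 216 and 148 FPKM in WT MGCs and 210.0, 177 and 6.78 in Sphk1/2gc-/- MGCs. Library 3 thus carries much of the likeness, which is given as a description with no test.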

How the data were processed

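RNA of MGCs and cumulus cells was measured in 12 libraries, 3 per genotype and cell type, grouped by their titles. The authors deposited FPKM values, fragments scaled by exon length and by library total, in 1 table per cell type (29101 and 33137 genes). The submitters' processing notes name HISAT2 and GRCm38; the counter and the annotation are not given in the sources used here. Ensembl IDs were matched to GENCODE M21. FPKM times exon length, divided by the value of a single read in that library, came out whole (within 0.02) for 90.6% to 92.1% of values above 0, which gave read counts and depth. With a floor of 3 reads, they cover counting error only.

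Tests were run on genes that averaged 0.5 FPKM or more in either genotype, with limma 3.58.1 (R 4.3.3), with a variance trend, on log2(FPKM + 1) within each cell type. The interaction of genotype and cell type was fitted over all 12 libraries. To pass, a gene needed an adjusted p (Benjamini-Hochberg) of at most 0.05, and a called gene also had a fold of at least 2. The members, the gene lists and the tests were chosen with earlier results of these data known. Beyond the members, list genes are named if they passed, or always for other prostanoid receptors and expansion genes, and the 5 genes nearest to Ptgs2 are named. The code was tested on simulated data before use. Promoter sequences come from RefSeq (GRCm38.p6, all 10 members matched by symbol). Ratios and figures were made with Python 3.11.15, pandas 2.3.3 and matplotlib 3.10.9.

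Alternatives were other pseudocounts, filters and scalings, no variance trend, limma-voom on the recovered reads, a replicate block and libraries left out. MGC libraries of the same number deviated together (correlation of deviations from the genotype means 0.220, 0.158 and 0.224). WT library 1 and Sphk1/2gc-/- library 2, of unlike number, had 0.155, so number 2 was not set apart as a pair. WT library 3 had −0.147 and −0.232 with Sphk1/2gc-/- libraries 1 and 2. The labels name no shared animal, so any pairing comes from the data.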

Additional observations from a re-analysis of the deposited data

Results flagged for a closer look

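The genotype effect on Pla2g4a, the phospholipase that frees arachidonic acid, differed between the cell types by −1.38 on the log2 scale (cumulus cells minus MGCs, SE 0.298, limma adjusted p = 0.0307), higher in 3 of 3 Sphk1/2gc-/- MGC libraries than in each WT one and lower in 3 of 3 Sphk1/2gc-/- cumulus libraries. It is named for a closer look because the effects run in opposite directions while neither passed over all 6 libraries of its own cell type. Another reason is that the call is lost without any 1 of 7 libraries. Prkar2b, a regulatory subunit of protein kinase A, differed in the same test by −1.44 (SE 0.348, limma adjusted p = 0.0429), with a log2 fold change of −1.50 in cumulus cells and −0.06 in MGCs. Groups of 3 libraries are too small for the rule on single outlying samples, so no library was tested that way.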

How the results depend on the processing

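The calls of Ptges, Hpgd and Ptgfr in cumulus cells held their direction and passed wherever they were tested, but Ptgfr was below a filter of a mean of 5 FPKM, which left 1 member called lower there. For MGCs all 6 libraries gave 1 gene called higher and 5 lower. With a pseudocount of 0.1 FPKM 3 were higher, with limma-voom on recovered reads 0 were higher and 0 lower, and without a filter, with a mean of at least 5 FPKM or with median centring 0 were lower. Leaving out 1 library gave 0 to 116 genes higher, 0 to 54 lower and 0 to 1 members lower, the upper values without Sphk1/2gc-/- library 3. Without library 3 of both genotypes 191 genes were higher, 286 lower and 2 members lower. With the replicate block in MGCs 2 genes were called higher and 1 lower, and no member.

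In cumulus cells 511 genes were called higher and 470 lower; these were 825 and 849 with the smaller pseudocount, 1179 and 1546 by adjusted p alone and 927 and 1038 with limma-voom. There the numbers did not pair the libraries (correlations of deviations −0.148, −0.0511 and 0.115), and the block left 506 and 456 calls. For the interaction (327 higher, 199 lower), no filter gave 162 and 89 and 0 members lower, the replicate block 343 lower and 1 member higher (Ptges), and the MGC libraries 3 left out 664 higher, 417 lower and 1 member higher. Leaving out 1 library gave 73 to 585 genes higher, 33 to 405 lower, and 0 to 1 members in each direction. The block changed no other call of a member.

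Of 447 values of single members under alternatives, 30 changed sign, and 0 of these passed. Each range here is of the log2 fold change with 1 library left out. In MGCs the members concerned were Ptgs1 (−0.17 to 0.15), Ptgs2 (−1.67 to 0.39) and Ptges (−0.0854 to 0.25), and without both libraries 3 they had 0.0916, 0.289 and −0.0265. In cumulus cells they were Ptgs2 (−0.34 to 0.15), Ptger2 (−0.38 to 0.16) and Ptges2 (−0.10 to 0.0966), the last also with limma-voom (−0.0011). In the interaction they were Ptgs1 (−0.0767 to 0.24), Ptgs2 (−0.44 to 1.63), Ptges3 (−0.0596 to 0.20), Ptger2 (−0.23 to 0.32) and Ptgfr (−0.17 to 0.67). There Ptgs1, Ptgs2 and Ptgfr had −0.0214, −0.331 and −0.304 without both MGC libraries 3, and Ptgfr had −1.01 with the smaller pseudocount and −1.46 with limma-voom. The cause was not tested. At 16100365 reads or more per library, depth limits Ptgs1 and the other prostanoid receptors apart from Ptgfrn in cumulus cells, which lie near or below 3 reads in most libraries.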

Other observations

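These values were chosen after they were seen. Ptgis, the prostacyclin synthase, was at 14.2 to 28.5 FPKM in cumulus libraries and 16.7 to 26.0 in MGC libraries of both genotypes, while Ptgir, the prostacyclin receptor, was at 0.0177 to 0.286 FPKM in MGCs and had 1 read in all cumulus libraries together. Ptgds, a PGD2 synthase, was at 0.976 to 4.96 FPKM in WT MGCs and 0.0358 to 0.772 in Sphk1/2gc-/- MGCs, and had 4 reads in all cumulus libraries together. Its log2 fold change in MGCs was −1.26 (SE 0.421) and did not pass (limma adjusted p = 0.439). The genotypes did not overlap for 16.9% of all genes in MGCs. Among cumulus libraries the highest Ptger2 values, 4.24 FPKM in WT library 2 and 5.03 in Sphk1/2gc-/- library 1, fell in the libraries with the highest Amh, at 1.90 and 2.16 FPKM against 0.102 to 0.468 in the others. Whether these belong together was not tested.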
